A study of Homo sapiens with 6 samples.

Results

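This report describes 38 genes of the nuclear pore and of nuclear transport, out of 19775 genes measured, in HCT116 cells given a precursor of the microRNA miR-224. The list holds 31 components of the pore or proteins bound to it, 4 transport receptors and 3 genes of the RAN cycle. The genes were chosen by function, with measured differences between miR-224 and control cells in these arrays already known, that of NUP58 among them. Every gene is represented by its brightest probe set over the 6 arrays, among the probe sets annotated with that symbol only. The differences between miR-224 and control cells therefore describe these genes and carry no test of their own. All 38 genes were measured, and 37 had a mean level at or above the median of all genes (4.75 on the log2 scale), the exception being POM121.

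HCT116 is an established human colon carcinoma line. The control cells received control molecules and the miR-224 cells received miR-224 precursor molecules, at 50 nM in both groups, and RNA was taken after 24 h in both. Each group has 3 arrays, a control and a miR-224 array from every one of 3 separate experiments, so differences were taken within an experiment first. The labels give no genotype beyond the line and do not say how far miR-224 itself increased. Expression values are read as log2 values, so a difference of -1 means a level lower by a factor of 2.

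Nuclear pore complexes are large protein assemblies that cross the nuclear envelope and carry all regulated traffic between nucleus and cytoplasm. Ring-shaped scaffolds hold a central channel that is filled with flexible chains rich in phenylalanine and glycine, and transport receptors of the karyopherin family cross it by binding those chains. The small GTPase RAN, in its GTP form in the nucleus and its GDP form in the cytoplasm, gives the receptors their direction. Several pore proteins also act at kinetochores in mitosis, when the envelope breaks down.

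The mature forms of miR-224 are shown because the seed, bases 2 to 8, is the part that pairs with messenger RNAs. Which of these forms the transfected precursor yielded was not measured here. The sequences are those of RefSeq on GRCh38.p14, at chrX:151958628-151958652 for the 5p form and chrX:151958584-151958606 for the 3p form, both on the minus strand. Capitals mark the seed.
hsa-miR-224-5p: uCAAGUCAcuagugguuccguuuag
hsa-miR-224-3p: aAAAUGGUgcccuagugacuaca
A search of the 2370 mature miRNAs in the RefSeq set used found no other with either seed. That set may not hold every human miRNA, so the seeds are not shown to be unique. Matches to these seeds in the transcripts of the pore genes were not analysed here.

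NUP58, a subunit of the central channel, had the lowest value relative to control of all 38 genes and of all 19775, at -1.69 ± 0.23 (SE) on the log2 scale, a level lower by a factor of 3.23. These are measurements of bulk RNA, in which fewer cells expressing a gene and less of its RNA per cell cannot be told apart. NDC1, a protein that anchors the pore in the membrane, was the gene with the highest value on the list, at 0.64 ± 0.16. These were the 2 genes beyond 0.5 either way, as 1.48% of all genes were. The other 36 genes lay between -0.26 and 0.31, and 32 of the 38 lay within 0.2 of 0, as did 79.4% of all genes. The list as a whole had no common direction: 19 genes were lower and 19 were higher in the miR-224 cells (46.8% and 53.2% of all genes), with a median difference of 0.001, against 0.01 over all genes. In experiments 1, 2 and 3 the median of the list was 0.03, 0.05 and -0.08.

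Fitted over all genes with experiment as a block (limma, Benjamini-Hochberg over 19775 genes), 0 of the 38 passed an adjusted p of 0.05, and neither did any other gene (0% called). An unadjusted p under 0.05 was reached by 4 of the 38, NUP58 below and NDC1, NUP93 and NUP155 above control, beside 11.0% of all genes. Of the 38, 10 had the same sign in all 3 experiments, beside 32.7% of all genes (2 lower, beside 14.4%, and 8 higher, beside 18.3%), and 0 had groups that did not overlap, beside 6.27%. Nothing is read from these counts, since the list was chosen with this contrast known. With experiment 1 left out, limma called NUP58 among 174 genes at an adjusted p of 0.05 (0.88% of all genes, and 0.743% on the lower side). With a mean-variance trend and robust variances it called NUP58 among 56 genes (0.283%, and 0.207% on the lower side). At an adjusted p of 0.1 the main limma fit called 4 genes (0.0202%) and 0 of the 38. Without the block, 313 genes (1.58%) had an unadjusted p under 0.05, and NUP58 was the single one of the 38 among them.

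**Figure D1:**
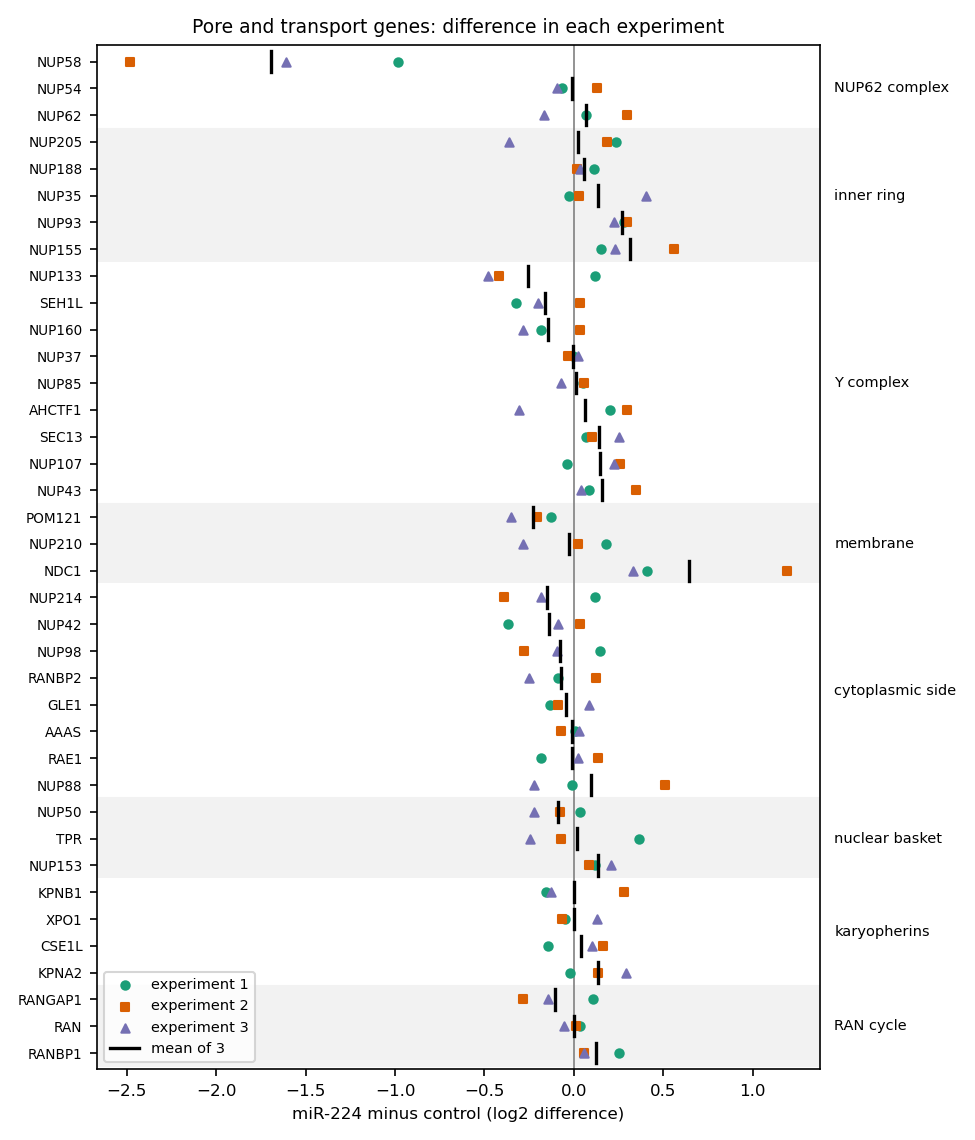
Difference between miR-224 and control cells in each of the 3 experiments (points) and their mean (black bars) for the 38 genes, ordered within their role in the pore, on a log2 axis. NUP58 lies far to the left in every experiment, from -0.98 to -2.48, NDC1 to the right, and most others scatter around 0 with signs that differ between experiments.

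The central channel is lined by a complex of NUP62, NUP58 and NUP54, which are held together by coiled coils. NUP58 stood at 7.93, 7.58 and 6.40 in the control cells of experiments 1, 2 and 3 and at 6.94, 5.09 and 4.80 in the miR-224 cells. It was lower in each experiment, with differences of -0.98, -2.48 and -1.61, while the groups overlapped: the control array of experiment 3 lay below the miR-224 array of experiment 1. Its partner NUP62 stood at 8.89, 8.10 and 8.19 in control and at 8.96, 8.39 and 8.02 in miR-224 cells. The difference of NUP62 was 0.07 ± 0.12 (SE), and its sign in experiment 3 was opposite to the other two. NUP54 stood at 9.33, 8.76 and 8.37 in control and at 9.26, 8.89 and 8.27 in miR-224 cells, a difference of -0.01 ± 0.11. In their brightest probe sets the 2 partners thus gave values near 0 with mixed signs. The second bright probe set of NUP62 was lower in each experiment, at -0.38, -0.25 and -0.36, a mean of -0.33. In experiment 1 it read 3.81 in control and 3.43 in miR-224 cells, below the median of all genes. It read 6.07 to 6.66 on the other arrays. With the mean of its probe sets NUP62 was at -0.11 and NUP54, whose other probe sets were dim, at 0.08.

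**Figure D2:**
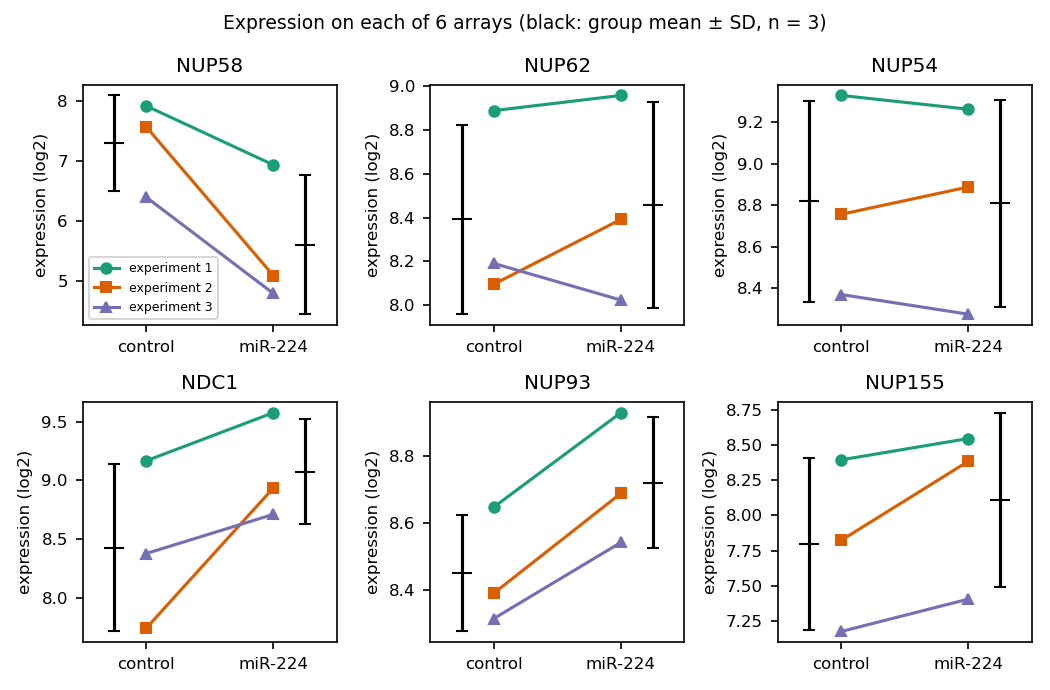
Expression (log2) of 6 genes on each array, with lines joining the control and miR-224 cells of an experiment and black marks for the group mean ± SD (n = 3). NUP58 goes down on all 3 lines and NDC1, NUP93 and NUP155 go up on all 3, while NUP62 and NUP54 have lines in both directions. Vertical axes differ between panels.

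The size of the NUP58 difference varied between its probe sets. NUP58 has 3 probe sets at or above the median gene level. The brightest gave the values above, and the second gave -0.53, -1.51 and -0.35 in experiments 1, 2 and 3, a mean of -0.80. The third gave 0.03, 0.09 and -0.52, a mean of -0.13, so that it was lower in experiment 3 only. A dim probe set had a mean of -0.13 as well, with values from -0.69 to 0.72. Taken as the mean of its 4 probe sets NUP58 stood at -0.69, against -1.69 for the brightest. Which exons or ends of the transcript these probe sets read was not analysed here.

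**Figure D3:**
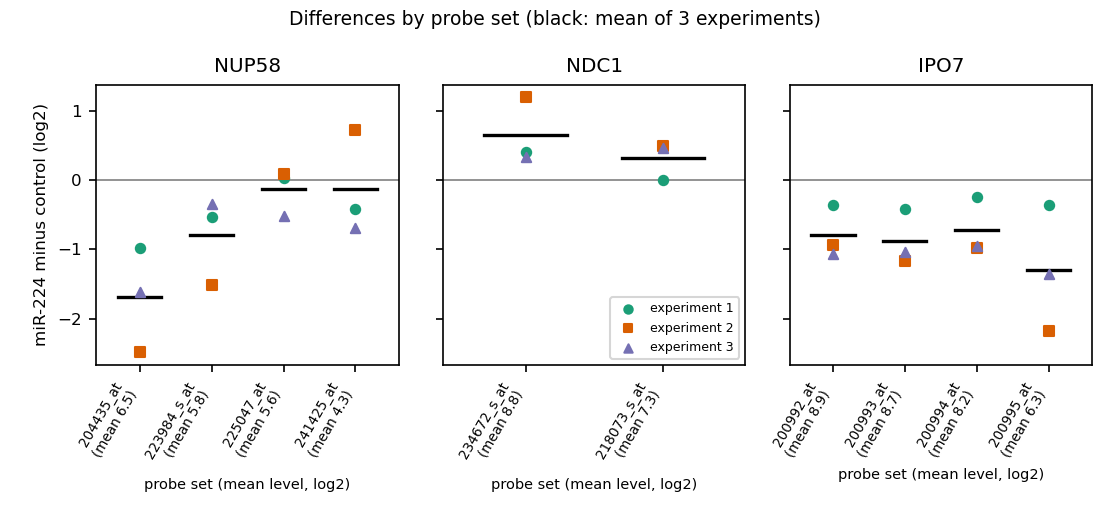
Difference between miR-224 and control cells (log2) for each probe set of NUP58, NDC1 and IPO7, with a point for each experiment and a black bar for the mean; the label gives the mean level of the probe set. The probe sets of NUP58 range from -1.69 to -0.13, both probe sets of NDC1 have a mean above 0, and all 4 of IPO7 lie below 0 in every experiment.

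The inner ring of NUP93, NUP205, NUP188, NUP155 and NUP35 surrounds and holds the channel complex. All 5 genes of the ring had a higher mean in the miR-224 cells, beside 53.2% of all genes, with a median difference of 0.13. Among the 8 role groups of the list this held for the inner ring only. Outside the list, the 3 RAN regulators were all higher too. The groups are small, and nothing is read from this. NUP155, which links the ring to the membrane, stood at 8.39, 7.82 and 7.18 in control and at 8.55, 8.38 and 7.41 in miR-224 cells. NUP155 was higher in each experiment, by 0.31 ± 0.12 (SE) on average, but the groups overlapped widely. NUP93, the scaffold that recruits the channel complex, stood at 8.65, 8.39 and 8.32 in control and at 8.93, 8.69 and 8.54 in miR-224 cells. It was higher by 0.28, 0.30 and 0.23, a mean of 0.27 ± 0.10, and its groups overlapped. With the mean of its probe sets, which takes in a dim one, the value for NUP93 was 0.13. NUP35 (0.13), NUP188 (0.06) and NUP205 (0.02) differed less, and NUP205 was at -0.36 in experiment 3. The median of the group lay between 0.19 and 0.22 with an experiment left out.

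The Y complex, the outer scaffold, had 4 of its 9 genes lower and 5 higher, with a median of 0.01. NUP133, at the stalk of the Y, stood at 7.79, 7.18 and 7.16 in control and at 7.90, 6.77 and 6.69 in miR-224 cells. Its differences were 0.12, -0.42 and -0.48, so that it was lower in experiments 2 and 3 only, with a mean of -0.26 ± 0.13 (SE). Its other bright probe set was at 0.75, 0.12 and -0.17, and with the mean of both NUP133 was at -0.01. That probe set read 3.09 in control and 3.85 in miR-224 cells of experiment 1, below the median gene level. It read 5.26 to 5.52 on the other arrays. SEH1L, a subunit shared with a regulator of mTORC1, stood at 9.56, 8.19 and 8.05 in control and at 9.24, 8.22 and 7.85 in miR-224 cells, a difference of -0.16 ± 0.11 with mixed signs. NUP160 was at -0.14, and NUP37, NUP85 and AHCTF1, the last of which brings the complex to chromatin after mitosis, lay between -0.003 and 0.06. NUP43 (0.16), NUP107 (0.15) and SEC13 (0.14), which also coats vesicles of the endoplasmic reticulum, were higher by similar amounts. Of the 9, NUP43 and SEC13 had a single sign in all 3 experiments in their brightest probe sets. The other bright probe sets of NUP160 had means above control, at 0.46 and 0.11. That of NUP37 was lower in each experiment, at -0.28, -0.26 and -0.48, a mean of -0.34. The probe sets at 0.11 and -0.34 read below the median gene level on some arrays.

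Of the 3 membrane proteins, NDC1 stood at 9.17, 7.74 and 8.38 in control and at 9.58, 8.94 and 8.71 in miR-224 cells. It was higher in each experiment, by 0.41, 1.19 and 0.33, and its control in experiment 2 was the lowest of the 6 arrays. Without experiment 2 the difference was 0.37, against 0.64 over all 3, so experiment 2 sets much of its size. Its second bright probe set gave -0.004, 0.49 and 0.46, a mean of 0.31. POM121 was dim, at 4.42, 4.72 and 5.01 in control and at 4.29, 4.52 and 4.65 in miR-224 cells. It was lower in each experiment, at -0.23 ± 0.11 (SE), and its groups overlapped. It has a near-identical copy, POM121C (-0.19), from which its probes may not tell it apart, so both values are uncertain. NUP210 was at -0.03 with mixed signs in its brightest probe set. Its other bright probe sets were lower in each experiment, with means of -0.14 and -0.13. The one at -0.14 read 3.92 and 3.78 in experiment 1 and 6.92 to 7.12 on the other arrays.

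In the group set down here as the cytoplasmic side, 7 of 8 genes had a lower mean, with a median of -0.06. Of the 8, 0 had a single sign in all experiments. With the mean of each gene's probe sets this median was 0.03. NUP214, a filament protein that binds the mRNA export helicase, stood at 6.34, 6.09 and 6.24 in control and at 6.46, 5.70 and 6.06 in miR-224 cells, a difference of -0.15 ± 0.12 (SE). NUP42, which helps GLE1 activate that helicase, stood at 7.42, 6.54 and 6.34 in control and at 7.05, 6.58 and 6.26 in miR-224 cells, a difference of -0.14 ± 0.12. Both are within the spread between experiments. The others were NUP98 (-0.08), RANBP2 (-0.07), a SUMO ligase whose near-identical genomic copies make its value uncertain, GLE1 (-0.04), AAAS (-0.01), RAE1 (-0.01), an mRNA export factor, and NUP88 (0.09).

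In the nuclear basket, NUP153 stood at 8.69, 8.18 and 7.57 in control and at 8.81, 8.27 and 7.78 in miR-224 cells. It was higher in each experiment, at 0.14 ± 0.10 (SE), and at -0.001 with the mean of its probe sets, of which the other 2 were dim. NUP50, a cofactor of import, stood at 9.75, 8.81 and 8.53 in control and at 9.79, 8.73 and 8.31 in miR-224 cells, a difference of -0.09 ± 0.11. TPR, the coiled-coil protein that forms the basket, had a mean difference of 0.02, made up of 0.36, -0.07 and -0.25 in experiments 1, 2 and 3. The other bright probe set of TPR was lower in each experiment, at -0.08, -0.26 and -0.51, a mean of -0.28, and its 3 dim probe sets had means of -0.47, -0.23 and -0.26, each lower in every experiment. The brightest probe set of TPR thus stood apart from its other 4.

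The 4 transport receptors on the list differed little, with a median of 0.02. KPNA2, an importin alpha that binds classical import signals, stood at 11.86, 11.77 and 11.09 in control and at 11.84, 11.91 and 11.39 in miR-224 cells, a difference of 0.13 ± 0.11 (SE). CSE1L, which returns importin alpha to the cytoplasm, stood at 10.93, 10.67 and 10.40 in control and at 10.79, 10.83 and 10.50 in miR-224 cells, a difference of 0.04 ± 0.11. KPNB1, the importin beta that pairs with KPNA2, was at -0.001, and XPO1, the main exporter of proteins with leucine-rich signals, at 0.004. Each of the 4 had signs that differed between experiments.

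In the RAN cycle, RAN itself was at -0.002 ± 0.10 (SE), with values from 11.66 to 11.88 on the 6 arrays. RANGAP1, which makes RAN hydrolyse its GTP, stood at 7.99, 8.15 and 7.78 in control and at 8.10, 7.87 and 7.64 in miR-224 cells, a difference of -0.11 ± 0.12. RANBP1, its helper in the cytoplasm, stood at 10.10, 10.65 and 10.61 in control and at 10.35, 10.71 and 10.67 in miR-224 cells, a difference of 0.12 ± 0.11 that was positive in each experiment. These 3 genes therefore stayed within about the size of their standard errors.

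Levels also differed between experiments, over both treatments. In 33 of the 38 (86.8%) the level in experiment 1 was above the mean of experiments 2 and 3, where 56.9% of all genes were, and that difference had a median of 0.58 in the list and of 0.05 over all genes. In 30 of the 38 (78.9%) experiment 2 was above experiment 3, as it was in 47.0% of all genes, and the medians were 0.29 and -0.02. SEH1L was higher in experiment 1 by 1.33, NUP35 by 1.31 and NUP50 by 1.18, whereas RANBP1 stood at -0.44 and POM121 at -0.37. Other nuclear transport genes, described further on, showed much of this too: 71.4% of the 35 were higher in experiment 1, with a median of 0.36, and 77.1% were higher in experiment 2 than in 3, with a median of 0.13. The comparison with all genes was not matched for level. The median level was 8.45 in the list and 4.75 over all genes, and the median range between experiments was 0.77 and 0.34. Experiment 1 is a single experiment, so these are descriptions of its arrays.

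Both arrays of experiment 1 also stood apart in the 5′ control probe sets, where that of ACTB averaged 4.28 against 12.4 in experiments 2 and 3, while the 3′ values were 12.5 in both. Among the 74 probe sets of the list at or above the median gene level, the difference between experiment 1 and the others ran from -4.04 to 2.20. Probe sets of a gene could disagree: for RANGAP1 the probe set used was higher in experiment 1 by 0.19, and the other two were at -4.04 and -3.39. Of the 37 bright probe sets used for a gene, 4 lay below 0 in this measure, against 16 of the 37 other bright probe sets. Over all genes, also read by their brightest probe sets, 56.9% were higher in experiment 1. How far the choice of probe set bears on these counts was not tested. The part of this signal in the levels given above was not tested. In experiments 2 and 3 alone NUP58 was at -2.05 and NDC1 at 0.76.

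**Figure D4:**
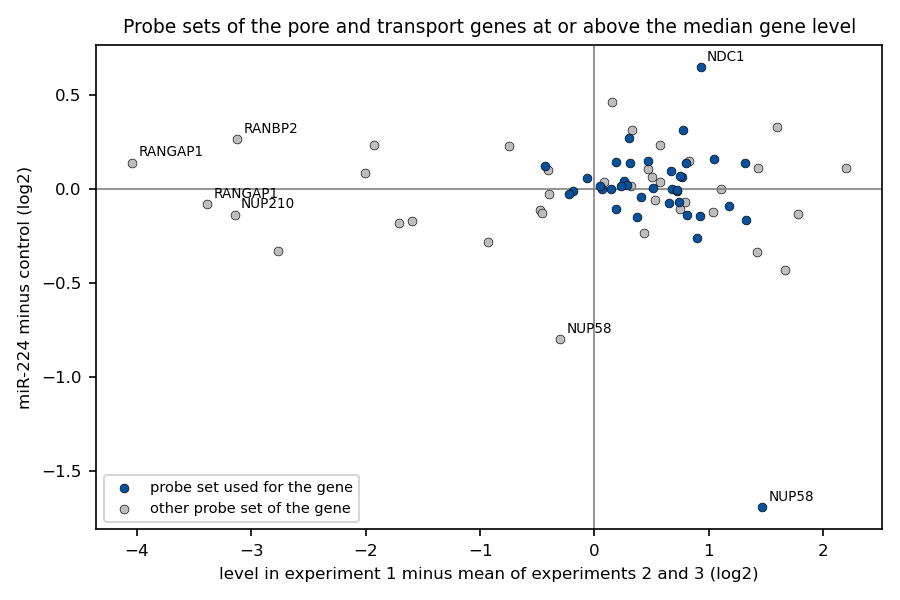
For the 74 probe sets of the list at or above the median gene level, the level in experiment 1 minus the mean of experiments 2 and 3 (horizontal, log2) against the difference between miR-224 and control cells (vertical, log2). Probe sets spread over -4.04 to 2.20 between experiments, while between treatments 3 of the 74 lie beyond 0.5 either way, namely 2 of NUP58 and 1 of NDC1.

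Agreement between probe sets was limited for small differences. Of the 38 genes, 23 had several probe sets at or above the median gene level, and in 15 of these the signs of the treatment difference were mixed. RANBP2, whose brightest probe set was at -0.07, had others at 0.23, 0.26 and 0.33. Averaging over probe sets also brought SEH1L to -0.06, NUP214 to -0.10, NUP50 to -0.05, KPNA2 to 0.07, RANBP1 to 0.07 and RANGAP1 to -0.02, each nearer to 0 by more than a factor of 1.5.

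Genes of nuclear transport outside the list were read in the same fit. Of 40 genes set down by function, 35 were measured, namely other importins and exportins, RAN regulators, mRNA export factors and genes related to pore components. By limma with experiment as a block, 0 of the 35 passed over all genes (0% called), and 5 had an unadjusted p under 0.05, all lower (IPO7, XPO5, SNUPN, KPNA6 and IPO8), beside 5.52% of all genes on the lower side. Their median difference was -0.002, with 18 lower and 17 higher. By group the median was 0.09 for importins alpha, -0.03 for other import receptors, -0.02 for export receptors, 0.02 for RAN regulators, and -0.10 for both mRNA export factors and pore-related genes. The groups did not overlap for 2 of the 35 (IPO7 and the dim IPO11), both lower, beside 2.11% of all genes.

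IPO7, importin 7, carries ribosomal proteins, histone H1 and signalling proteins into the nucleus. IPO7 stood at 8.72, 9.62 and 9.43 in control and at 8.36, 8.68 and 8.37 in miR-224 cells. In this brightest probe set every miR-224 array thus lay below every control array, by a narrow margin. The difference of IPO7 was -0.79 ± 0.14 (SE), with -0.36, -0.94 and -1.07 in experiments 1, 2 and 3 and a limma adjusted p of 0.14. The 4 bright probe sets of IPO7 stood at -0.79, -0.87, -0.72 and -1.30, lower in each experiment in each case. For those at -0.72 and -1.30 the groups overlapped. There the control array of experiment 3 (8.06 and 6.07) lay below the miR-224 array of experiment 1 (8.71 and 7.48). Experiments 2 and 3 alone gave -1.002 for IPO7 with a limma adjusted p of 0.0081, and limma with a mean-variance trend and robust variances gave an adjusted p of 0.015.

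XPO5, exportin 5, carries precursors of microRNAs out of the nucleus. XPO5 stood at 8.75, 8.38 and 8.29 in control and at 8.70, 7.62 and 7.46 in miR-224 cells, and its difference was -0.54 ± 0.15 (SE), with a limma adjusted p of 0.27. It was at -0.04 in experiment 1 and at -0.76 and -0.82 in experiments 2 and 3, where limma on those experiments alone gave -0.79 with an adjusted p of 0.024. Its other bright probe sets were at -0.50 and -0.20. SNUPN, the import adaptor of spliceosomal snRNPs, was at -0.25, -0.36 and -0.23 in experiments 1, 2 and 3, a mean of -0.28 ± 0.10 (limma adjusted p = 0.37). KPNA6, an importin alpha, was at -0.31, and IPO8, which also binds Argonaute proteins, at -0.33. Differences of KPNA6 and IPO8 came from experiments 2 and 3, with -0.02 and 0.04 in experiment 1.

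On the higher side, the genes with the smallest p and a single sign were IPO13, a receptor for import and export, at 0.16 ± 0.10 (SE), KPNA1 at 0.13 ± 0.10 and IPO9 at 0.09 ± 0.10. These 3 values missed the threshold (limma adjusted p = 0.61, 0.69 and 0.80). With the mean of their probe sets IPO9 was at -0.07 and KPNA1 at 0.03, and the second brightest probe set of KPNA1 was lower in each experiment, at -0.07 on average.

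**Figure D5:**
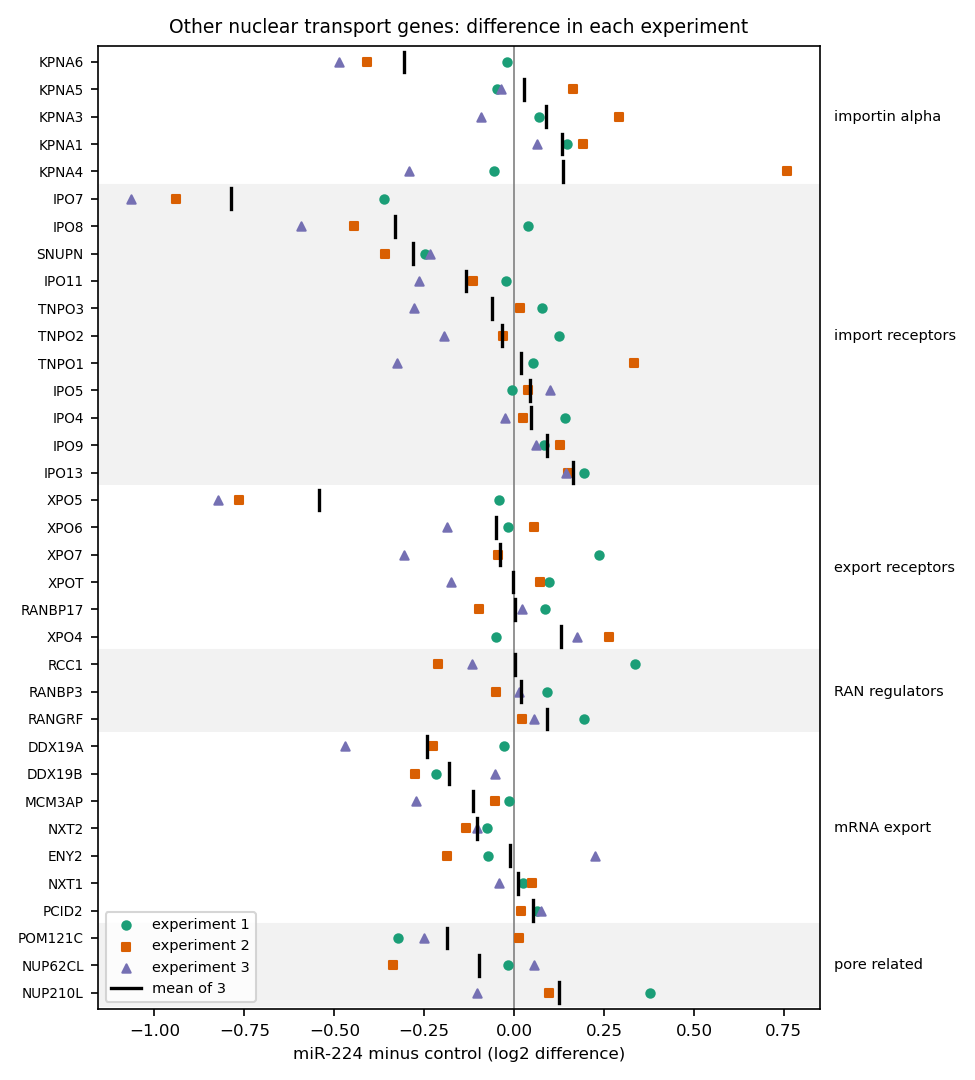
Difference between miR-224 and control cells in each experiment (points) and their mean (black bars) for 35 other nuclear transport genes, on a log2 axis. IPO7 lies lowest, at -0.79, followed by XPO5 at -0.54, whose point for experiment 1 is near 0.

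Promoters of the list were searched for motifs of factors known to act at widely expressed genes. RefSeq (GRCh38.p14) gave the 250 bases before the start of 33 of the 38, with none for AHCTF1, GLE1, KPNB1, NUP43 and RANBP1 in the table used. On either strand, the ETS motif CCGGAAG was found in 12 of the 33 (36.4%), against 8.8% of 27305 promoters, and the NRF1 motif, whose forms stand in capitals in the NUP107 sequence below, in 5 (15.2%), against 5.5%. The SP1 motif GGGCGG was found in 17 (51.5%, against 42.3%) and the CCAAT box in 13 (39.4%, against 33.0%). The E2F motif TTTGGCGC and the YY1 motif were found in 0 of these windows, against 0.6% and 0.3%. The windows of the list had a median GC content of 62.8%, against 58.0% over all promoters. These shares were not matched for GC content or for expression. Matches to different motifs may share bases at their ends, and a match is a description of letters, not a site. The 12 genes with an ETS match had a median treatment difference of -0.05, with 8 lower, and the 21 without had 0.01, with 9 lower. The promoters of NUP58, the gene with the lowest value, and of NUP107, which holds matches to 3 of the motifs, show the pattern, with capitals for the matches. The NUP58 window, chr13:25301375-25301624 on the plus strand, holds the ETS motif. The NUP107 window, chr12:68686728-68686977 on the plus strand, holds in order the CCAAT box, 2 NRF1 matches and the ETS motif.
NUP58: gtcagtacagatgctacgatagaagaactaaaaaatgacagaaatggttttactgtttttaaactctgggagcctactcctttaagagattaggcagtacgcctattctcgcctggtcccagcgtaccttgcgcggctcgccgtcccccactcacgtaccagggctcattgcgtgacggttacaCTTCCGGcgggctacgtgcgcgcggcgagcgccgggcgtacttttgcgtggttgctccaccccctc
NUP107: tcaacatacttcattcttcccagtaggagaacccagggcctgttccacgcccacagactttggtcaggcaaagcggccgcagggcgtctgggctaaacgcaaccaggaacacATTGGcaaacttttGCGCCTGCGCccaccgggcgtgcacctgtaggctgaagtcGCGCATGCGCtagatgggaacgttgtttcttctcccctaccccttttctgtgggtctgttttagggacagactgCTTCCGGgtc

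Markers of the labelled cell type were present in part. EPCAM read 10.1 to 10.8 and KRT18 12.1 to 12.5 on the 6 arrays, while the intestinal genes VIL1 and CDX2 were low, at 3.72 to 4.33 and 5.10 to 5.67. KRT8 read 6.73 and 7.30 on the arrays of experiment 1 and 11.0 to 11.3 on the others. The summed level of the 7 epithelial markers ran from 56.8 to 63.8 in control and from 57.9 to 63.2 in miR-224 cells. Of the marker lists for other cells, 5 of 5 fibroblast, 3 of 5 leukocyte and 3 of 3 endothelial genes were measured, and all but COL1A1 (5.66 to 6.19) lay below the median gene level on every array. Summed levels in control and miR-224 cells were 18.3 to 18.8 and 18.7 to 19.3 for fibroblast, 8.89 to 9.09 and 8.68 to 9.20 for leukocyte, and 10.3 to 10.8 and 9.69 to 10.5 for endothelial genes.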

How the data were processed

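The data are 6 Affymetrix arrays of total RNA. RMA and Partek are named in the submitters' processing notes, with versions and settings not given in the sources used here. The deposited values, 1.47 to 13.6, were read as log2 values, though base 2 is not stated. RMA makes array distributions alike, so a shift common to most genes cannot be seen. Of 54675 probe sets, 41091 had 1 gene symbol in the array annotation, 1801 had several and 62 were controls. Symbols matched the RefSeq table, with 0 changed.

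Groups and experiment numbers come from the sample titles. Experiment was a block in the main fit, as the series describes pairs. Same-numbered arrays deviated together (correlation across genes of 0.855, 0.585 and 0.771 for experiments 1, 2 and 3, against -0.753 to 0.257 for other pairs). Deviations were taken from each group's mean, which by itself lowers the other pairs where same-numbered ones are high. limma 3.58.1 in R 4.3.3 was used (two-sided, 2 residual degrees of freedom, 1 with an experiment left out), with standard errors from the moderated fit, and tested on simulated data. With 3 arrays a group, their number limits the precision. Genes given in full are all 3 of the NUP62 complex, the 2 with the largest mean difference of every other role group, and, of the other transport genes, the 3 with the smallest p in each direction and a single sign; the remaining members are given by value. KPNA6, IPO8, IPO11 and POM121C were named after their values were seen. The members and lists were chosen with earlier results of these data known. Alternatives were no block, each experiment left out, other scalings, averaging of all probe sets per gene, a level filter, other variance settings and a threshold of 0.1. Plots used matplotlib 3.10.9 (Python 3.11.15).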

Additional observations from a re-analysis of the deposited data

How the results depend on the processing

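The fit with experiment as a block called 0 of all genes, 0 of the 38 and 0 of the 35 other transport genes, and so did the fit without the replicate block (0, 0 and 0, with 313 genes, 1 of the 38 and 1 of the 35 at an unadjusted p under 0.05). Leaving out each experiment in turn, the counts ranged from 0 to 174 over all genes, from 0 to 1 of the 38 (NUP58, without experiment 1) and from 0 to 2 of the 35 (IPO7 and XPO5, without experiment 1). An intensity trend with robust variances gave 56 genes, 1 of the 38 and 1 of the 35, and a threshold of 0.1 gave 4 genes, 0 of the 38 and 0 of the 35. The median over the 38 ran from -0.02 to 0.05 without the block, with each experiment left out, with other scalings and with averaged probe sets. It was not taken for the other alternatives. Of the 23 genes named by rule, 4 changed sign with the mean of their probe sets (NUP62, NUP54, NUP153 and IPO9). With median centring or another quantile normalization 0 did, and 1, 2 and 1 did without experiment 1, 2 and 3. Leaving out the replicate block keeps each difference the same by design, so no sign could change there. With 3 arrays a group and 2 residual degrees of freedom, differences of the size seen in most of these genes are near their errors. The cause of the changes between settings was not tested.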
